A study of Homo sapiens with 6 samples.

Results

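The genes followed here, 10 in number, belong to the extrinsic route to apoptosis: the death receptors FAS, TNFRSF10A, TNFRSF10B and TNFRSF1A, the related receptors TNFRSF10D and TNFRSF12A, and CASP8, CFLAR, FADD and RIPK1, which act at the receptors' inner face. They were chosen by name for their role, with earlier results of these data known. All 10 were found among the 61806 genes of the deposited table and had enough counts to be tested. RNA was sequenced from HFF human foreskin fibroblasts, a cultured cell line labelled wild type, in 3 libraries of a UVB group and 3 libraries of a UVB + sauchinone group. Both groups had been exposed to 40 mJ per cm2 of UVB, the sunlight band that damages DNA directly, and were kept for 48 h. The UVB group received vehicle, and the other group 10 µM sauchinone, a lignan from a medicinal plant. Per the labels' protocols the compound followed the irradiation, with a variant in which cells also met it beforehand, and the labels do not say which one these libraries represent. Every value below therefore compares irradiated cells with irradiated cells of 1 line; unirradiated cells were not analysed here.

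Death receptors are surface proteins of the tumour necrosis factor (TNF) receptor family. When a ligand clusters FAS, TNFRSF10A or TNFRSF10B, their death domains recruit the adaptor FADD. FADD binds procaspase 8 and lets it cut and activate itself. CFLAR, a relative of caspase 8 without protease activity, joins the same complex and controls that step, and the kinase RIPK1 directs the TNF receptor towards survival signalling or cell death. In skin, UVB is a known trigger of this route in damaged cells, and several of its receptor genes are known targets of p53.

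Total counts per library ran from 20984851 to 23076388. A count of 3, taken as the floor, corresponded to 0.129 to 0.144 CPM (counts scaled to TMM-adjusted library size) and covers counting error only. All libraries carry the same batch label. Nothing in the labels says that replicates were separate cultures, and the p-values reflect a spread between libraries that could be technical only. All 10 fibroblast markers were detected, with summed levels of 19449 to 21310 CPM under UVB alone and 13695 to 13969 CPM with sauchinone, and 9 of the 10 fell. Of the markers of other skin and blood cells, KRT5, KRT1 and DSG3 (keratinocytes), TYR, DCT and SOX10 (melanocytes), CDH5 and KDR (endothelium) and CD3E and NKG7 (leukocytes) had at most 3 counts in any library. Their whole lists summed to 13.2 to 15.7 CPM (keratinocytes, over both groups), to 1.85 to 2.55 and 1.47 to 1.63 CPM (melanocytes, UVB and then sauchinone), to 6.76 to 7.99 and 2.51 to 3.39 CPM (endothelium) and to 3.13 to 4.06 CPM (leukocytes, over both groups). Of those tested, 1 keratinocyte, 1 melanocyte and 1 endothelial marker fell and none rose. The 8 markers of pericytes and smooth muscle summed to 357 to 359 CPM under UVB alone and 173 to 189 CPM with sauchinone, and 5 of them fell. The part of these shifts in the results below was not tested, and fewer cells of a type and less RNA per cell cannot be told apart in such libraries.

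With sauchinone, 7 of the 10 genes rose, 1 fell and 2 did not pass the test. Those that rose were the 6 receptors and RIPK1, with log2 fold changes from 0.34 to 1.98. CFLAR fell by 0.22 on the log2 scale, and CASP8 and FADD did not pass. The test was edgeR's quasi-likelihood test with a threshold of 0.05 on the Benjamini-Hochberg adjusted p, and with it 49.6% of the 15704 genes tested were called, 24.7% higher and 24.9% lower. The median log2 fold change was 0.52 over the 10 genes and 0.0071 over all genes tested. In 8 of the 10 genes the libraries of the 2 groups did not overlap, against 57.1% of all genes tested. The 10 genes were chosen with earlier results of these data known, so these comparisons describe them and test no excess.

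**Figure D1:**
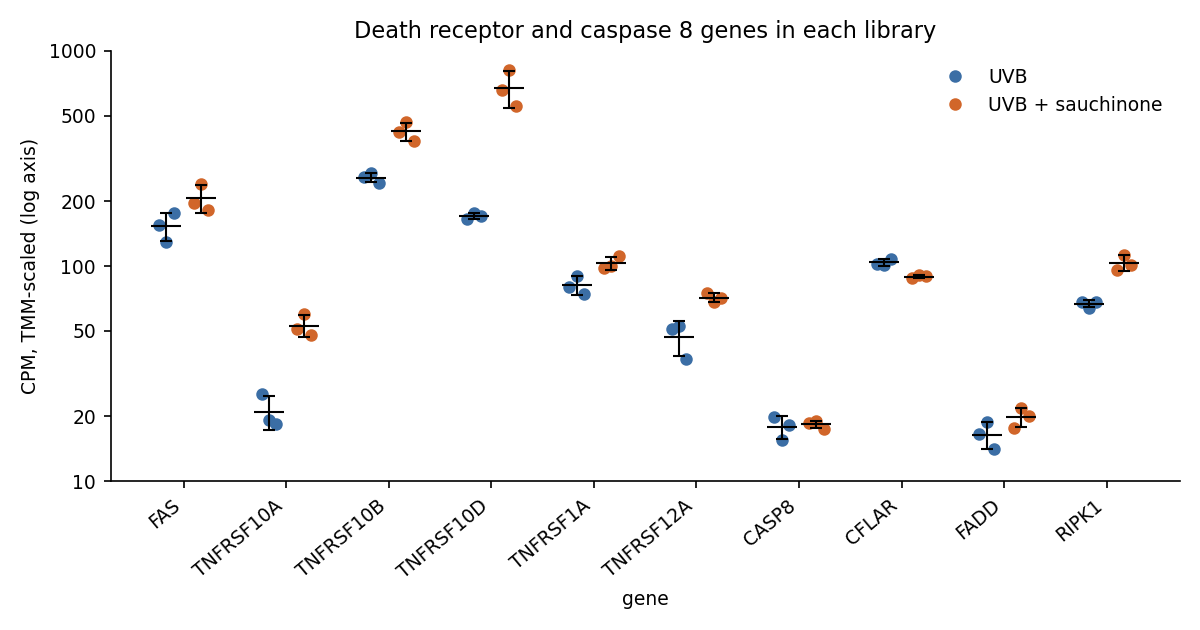
CPM of each gene (vertical log axis, TMM-scaled) in the 3 libraries of each group; points are libraries, and bars are the mean ± SD. The groups are apart in 8 genes and overlap in CASP8 and FADD, and TNFRSF10D has the widest gap, from 171 to 675 CPM on average.

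**Figure D2:**
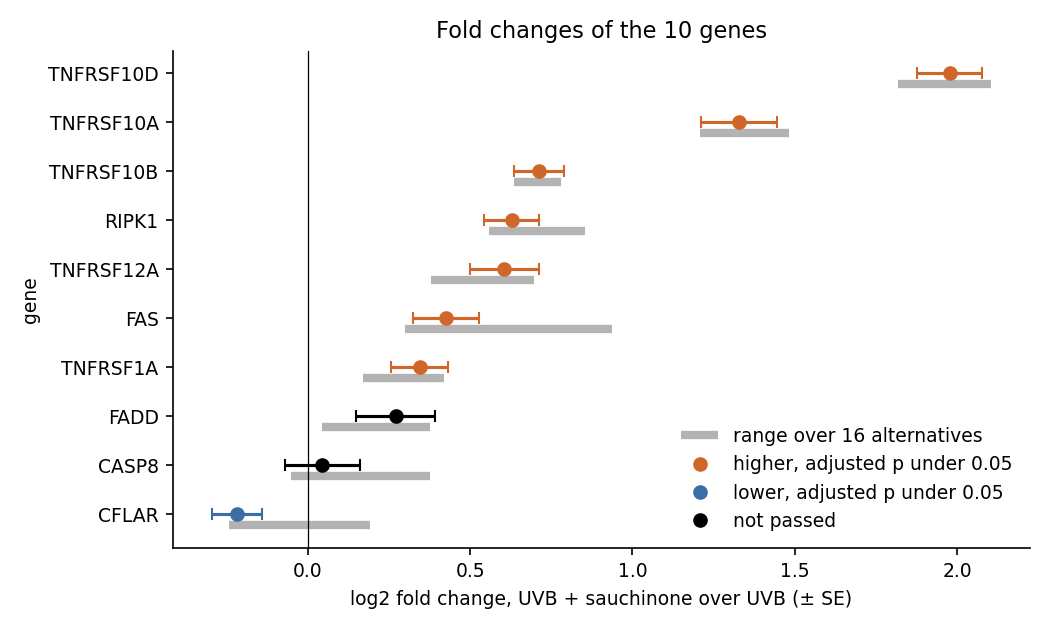
Log2 fold change of UVB + sauchinone over UVB with its SE (points and thin bars, horizontal axis), and the range of the same value over 16 alternative analyses (grey bars). TNFRSF10D, TNFRSF10A and TNFRSF10B lie furthest to the right in the main analysis, and only the ranges of CASP8 and CFLAR cross 0.

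The largest log2 fold changes of the 10 genes were those of TNFRSF10D and TNFRSF10A, receptors of the death ligand TRAIL. TNFRSF10D, a decoy receptor whose shortened death domain does not signal death, was at 166, 177 and 171 CPM in UVB replicates 1, 2 and 3 and at 657, 815 and 553 CPM in UVB + sauchinone replicates 1, 2 and 3. Its libraries were tightly grouped in UVB and spread in UVB + sauchinone, where even the lowest lay far above all of UVB. The means were 171 ± 5.43 and 675 ± 132 CPM (SD, n = 3 in each group), a 3.94-fold rise (log2 fold change 1.98 ± 0.099, SE; edgeR adjusted p = 5.5e-13), and only 0.643% of all genes tested had a higher log2 fold change. TNFRSF10A, a receptor that transmits the death signal, measured 25.5, 19.2 and 18.5 CPM under UVB alone and 50.9, 59.8 and 48.0 CPM with sauchinone. No library of one group came near the other, and the mean rose 2.51-fold (log2 fold change 1.33 ± 0.12; edgeR adjusted p = 3.3e-09), with 2.28% of tested genes above it. TNFRSF10B, the other signalling TRAIL receptor, was at 259, 269 and 244 CPM and then 419, 464 and 382 CPM. It rose 1.64-fold (0.71 ± 0.077 on the log2 scale; edgeR adjusted p = 8.1e-08). The SE ranges of this rise and of that of RIPK1 (0.63 ± 0.084) overlapped.

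These genes are neighbours on the short arm of chromosome 8 (GRCh38). TNFRSF10B (ENSG00000120889) lies at 23020133 to 23069031, TNFRSF10D (ENSG00000173530) at 23135588 to 23164027 and TNFRSF10A (ENSG00000104689) at 23190452 to 23225102, all on the minus strand. A further decoy gene that was no member, TNFRSF10C, sits among them at 23102921 to 23117445 on the plus strand. Its means were 37.7 ± 2.17 CPM under UVB alone and 43.1 ± 1.70 CPM with sauchinone, and its log2 fold change of 0.19 ± 0.089 did not pass (edgeR adjusted p = 0.077). The receptors are paralogs, so shared reads were looked for. None of the distinct 75-base windows of the transcripts of TNFRSF10A (2905), TNFRSF10B (5218) or TNFRSF10D (3464) occurred in another TRAIL receptor transcript of GENCODE 29. The libraries were made to keep strand, per the labels' protocols, but whether the counting used it is not stated. RHOBTB2, which overlaps TNFRSF10B on the other strand, rose by 1.17 ± 0.12 with 7.45% as many counts. The antisense genes TNFRSF10A-AS1 and TNFRSF10A-DT had 10.9% and 2.42% as many counts as TNFRSF10A and log2 fold changes of 0.50 and 1.58.

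Per length of exon, the decoy TNFRSF10D made up a larger part of the TRAIL receptor transcripts in every UVB + sauchinone library than in any UVB library. In FPKM (counts scaled to exon length and library total, deposited by the authors), TNFRSF10D made up 35.2%, 37.5% and 38.0% of the sum of TNFRSF10A, TNFRSF10B, TNFRSF10C and TNFRSF10D in the UVB libraries and 59.2%, 61.9% and 56.5% in the UVB + sauchinone libraries. The share of TNFRSF10B went from 39.1% ± 1.09 to 26.4% ± 1.36 (SD, n = 3) and that of TNFRSF10C from 18.6% ± 1.10 to 8.80% ± 1.16. The share of TNFRSF10A overlapped between the groups, at 5.47% ± 0.92 and 5.65% ± 0.24. The sum itself was 129 ± 3.43 FPKM in UVB and 325 ± 46.1 FPKM in UVB + sauchinone. The ratio of TNFRSF10B to TNFRSF10D was 1.10, 1.07 and 1.01 in UVB and 0.45, 0.40 and 0.49 in UVB + sauchinone, and was thus 2.38-fold lower. The ratio of TNFRSF10B to TNFRSF10A was 7.27 ± 1.18 and 4.67 ± 0.14. Both ratios were apart in every library. With 3 libraries against 3 the exact two-sided permutation test cannot go below p = 0.1, which both reached (0.13 adjusted over the 4 ratios computed).

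**Figure D3:**
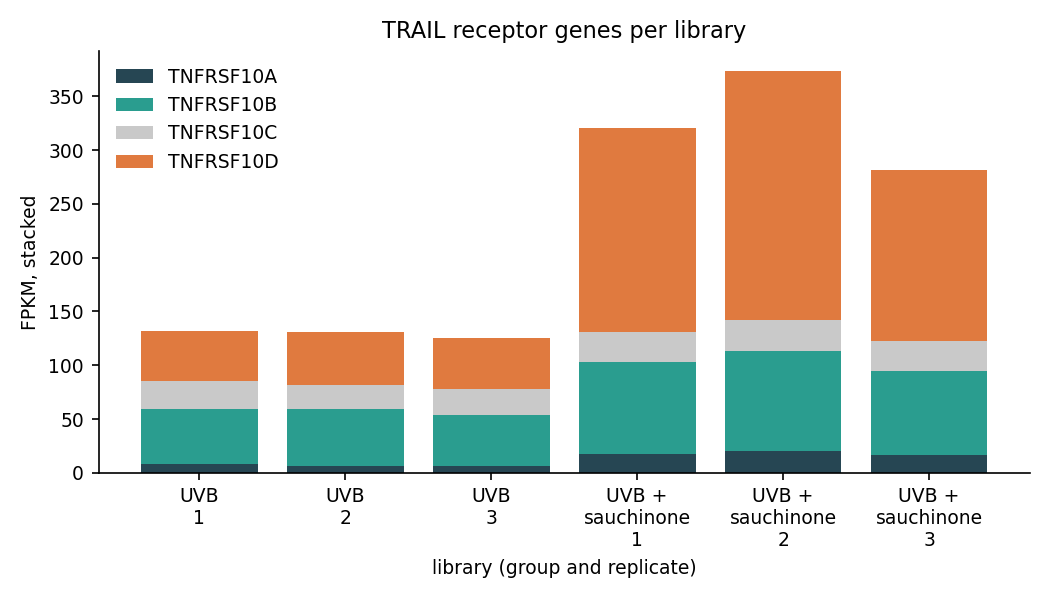
FPKM of the TRAIL receptor genes, stacked (vertical axis), in each library (horizontal axis). The stack is 125 to 132 FPKM high in UVB and 282 to 374 FPKM in UVB + sauchinone, and TNFRSF10D takes the largest part of the added height.

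FAS, the receptor of FAS ligand, was at 154, 129.9 and 177 CPM in UVB and at 196, 241 and 183 CPM in UVB + sauchinone. The groups did not overlap, but the highest UVB library and the lowest UVB + sauchinone library were close. The rise was 1.34-fold (log2 fold change 0.43 ± 0.10; edgeR adjusted p = 0.0014). The log2 fold change was 0.94 when a trend of counts with the deposited exonic size was removed. The gene model behind the FAS counts is wide. The deposited table places FAS (ENSG00000026103) on chromosome 10 at 88953813 to 89029605 on the plus strand, with 29.3 kb of exon, whereas GENCODE 29 has it at 88990582 to 89015785 with 4.25 kb. The wider model overlaps STAMBPL1 on the same strand. It also overlaps ACTA2, the smooth muscle actin gene, on the other strand, as the GENCODE 29 model does (380 exonic bases shared). Both fell, STAMBPL1 by 0.84 ± 0.093 and ACTA2 by 0.63 ± 0.096 on the log2 scale (edgeR adjusted p = 1.1e-07 and 9.4e-06), while FAS rose. How reads in the overlaps were assigned is not given in the sources used here, so the size of the FAS rise is uncertain.

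TNFRSF1A, the main TNF receptor of most tissues, stood at 80.1, 90.2 and 74.1 CPM under UVB alone and 98.4, 99.98 and 112 CPM with sauchinone (ENSG00000067182, chromosome 12 at 6328757 to 6342114, minus strand). All UVB + sauchinone libraries were higher, by a margin smaller than the range within UVB. Its 1.27-fold rise (0.34 ± 0.087; edgeR adjusted p = 0.0022) was the smallest among the genes that rose. It was the only one of these 7 to lose its call in an alternative, at 0.17 (edgeR adjusted p = 0.089) when a trend of counts with genomic span was removed. TNFRSF12A, the receptor of the cytokine TWEAK, has no death domain and binds TRAF adaptors instead (ENSG00000006327, chromosome 16 at 3018445 to 3022383, plus strand). It was at 50.9, 52.8 and 37.1 CPM and then 74.96, 67.8 and 71.2 CPM, with UVB replicate 3 well below its group. It rose 1.52-fold (0.60 ± 0.11; edgeR adjusted p = 6.0e-05), and by 0.38 on the log2 scale when the trend with genomic span was removed.

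RIPK1 was at 68.3, 63.9 and 68.1 CPM in UVB and at 95.5, 113 and 101 CPM in UVB + sauchinone (ENSG00000137275, chromosome 6 at 3063824 to 3115187, plus strand). The UVB libraries were close together and all lay below the other group. It rose 1.55-fold (log2 fold change 0.63 ± 0.084; edgeR adjusted p = 1.7e-06), and under the 16 alternatives its log2 fold change ran from 0.56 to 0.85. FADD, the adaptor that links receptor death domains to caspase 8, was at 16.5, 18.9 and 14.1 CPM and then 17.7, 21.8 and 20.1 CPM (ENSG00000168040, chromosome 11 at 70203296 to 70207390, plus strand). Its groups overlapped, with UVB replicate 2 above UVB + sauchinone replicate 1. The log2 fold change of 0.27 ± 0.12 did not pass (edgeR adjusted p = 0.072), and it did pass without UVB replicate 2 (0.38, adjusted p = 0.015), without UVB + sauchinone replicate 1 (0.35, adjusted p = 0.046) and with no scaling beyond total counts (0.32, adjusted p = 0.036). It was smaller without UVB replicate 3 (0.16, edgeR adjusted p = 0.26) and with the trend with genomic span (0.045, adjusted p = 0.78) or exonic size (0.13, adjusted p = 0.39) removed. With 1069 and 1365 counts over the groups it was among the least counted of the 10 genes. In GENCODE 29, 49.0% of its 75-base windows also belong to an antisense transcript, which had 0 counts here.

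Of the genes that rose, the promoters of FAS, RIPK1 and TNFRSF1A are shown, so that their sequence can be set beside their response. They were taken from RefSeq's table (GRCh38.p14). A window of 250 bases before an annotated start was read for 6 of the 10 genes at 15 start sites. None was read for TNFRSF10A, TNFRSF10B, TNFRSF10D and TNFRSF12A, which is no evidence that these genes lack an annotated start. Capitals mark matches, on either strand, to the AP-1 motif TGANTCA, the cyclic AMP response element TGACGTCA, the ATF4 response element TTGCATCA, the GC box written as GGGCGG and the TATA box written as TATAAA. The first listed start is printed for each gene.
FAS, chr10:88990548-88990797, plus strand: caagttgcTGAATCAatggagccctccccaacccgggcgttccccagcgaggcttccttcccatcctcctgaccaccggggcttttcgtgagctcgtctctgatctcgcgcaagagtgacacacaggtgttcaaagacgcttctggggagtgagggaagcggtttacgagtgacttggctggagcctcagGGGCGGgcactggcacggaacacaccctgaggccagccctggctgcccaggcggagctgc
RIPK1, chr6:3063717-3063966, plus strand: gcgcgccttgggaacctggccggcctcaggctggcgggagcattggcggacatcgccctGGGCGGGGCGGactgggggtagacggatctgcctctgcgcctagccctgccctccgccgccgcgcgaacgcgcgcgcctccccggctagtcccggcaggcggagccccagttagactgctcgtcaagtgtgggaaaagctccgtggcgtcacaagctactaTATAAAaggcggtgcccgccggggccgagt
TNFRSF1A, chr12:6342077-6342326, minus strand: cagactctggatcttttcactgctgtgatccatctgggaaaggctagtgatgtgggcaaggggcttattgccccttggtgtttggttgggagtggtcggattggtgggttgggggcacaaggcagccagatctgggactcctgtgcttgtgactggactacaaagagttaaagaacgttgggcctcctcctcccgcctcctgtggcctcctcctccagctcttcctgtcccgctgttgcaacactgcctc
The FAS window holds TGAATCA 235 bases before the start and a GC box. That of RIPK1 holds TATAAA 24 bases before the start and a pair of GC boxes that overlap by 1 base. That of TNFRSF1A holds none of the motifs. Over the 15 start sites of all 6 genes, a GC box occurred at 10, the AP-1 motif at 3, TATAAA at 2 and the other two motifs at none. In 34788 distinct windows of the same length the shares were 42.6%, 6.59% and 10.8%, and 1.64% and 0.776% for TGACGTCA and TTGCATCA. A loose NF-kB type motif, not marked above, occurred at 7 of the 15 sites and in 54.4% of those distinct windows. Some windows of FAS and of RIPK1 overlap, so some of their GC boxes were counted repeatedly. The 15 sites are therefore not independent, and their counts were not tested against these shares. A match in this window is a description of letters and not a bound site.

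CASP8, the protease at the centre of the complex, measured 19.8, 15.5 and 18.2 CPM under UVB alone and 18.6, 19.0 and 17.6 CPM with sauchinone. The second group lay inside the range of the first. The log2 fold change of 0.045 ± 0.11 did not pass (edgeR adjusted p = 0.77), but it was 0.38 with an adjusted p of 0.0080 when the trend with genomic span was removed. Its deposited model (ENSG00000064012, chromosome 2 at 201233443 to 201361836, plus strand) spans 128 kb and runs 74125 bases past its end in GENCODE 29. It overlaps the gene ENSG00000289698 on the same strand and FLACC1 on the other, with 12.2% and 3.02% as many counts as CASP8. Their log2 fold changes of −0.19 ± 0.24 and −0.84 ± 0.50 did not pass (edgeR adjusted p = 0.53 and 0.17). CFLAR, the inhibitor, gave 103, 101 and 108 CPM under UVB alone and 88.2, 90.4 and 89.5 CPM with sauchinone. All UVB + sauchinone libraries were lower, by a margin larger than their own spread. It was 1.16-fold lower (log2 fold change −0.22 ± 0.076; edgeR adjusted p = 0.021). That call was fragile: 5 of the 16 alternatives lost it, among them leaving out UVB replicate 1 (−0.23, adjusted p = 0.065), UVB + sauchinone replicate 1 (−0.21, adjusted p = 0.096) or UVB + sauchinone replicate 3 (−0.22, adjusted p = 0.065), and removing the trend with exonic size turned it to 0.19 (adjusted p = 0.035). The gene has 22.5 kb of exon in the deposited table and many isoforms, which gene counts do not separate.

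CFLAR (ENSG00000003402, chromosome 2 at 201116154 to 201176687), CASP10 and CASP8 lie one after the other on the plus strand. CASP10, a close relative of CASP8 and no member, lies between them at 201182872 to 201229428. It fell by 0.55 ± 0.19 on the log2 scale (edgeR adjusted p = 0.016), from 4.77 ± 0.49 to 3.25 ± 0.15 CPM. Its call was lost without UVB replicate 3 (−0.49, edgeR adjusted p = 0.057), without UVB + sauchinone replicate 1 (−0.51, adjusted p = 0.056) or with exonic size corrected for (−0.43, adjusted p = 0.058). Per exon length, the ratio of CFLAR to CASP8 was 1.67, 2.10 and 1.91 in UVB and 1.52, 1.53 and 1.64 in UVB + sauchinone. The groups were apart by a narrow margin, and the ratio was 1.21-fold lower with sauchinone (exact two-sided permutation p = 0.1, the smallest possible, and 0.13 adjusted over 4 ratios). The ratio of FADD to CASP8 overlapped between the groups, at 3.99 ± 1.02 and 4.58 ± 0.48 (exact permutation p = 0.4, and 0.4 adjusted). No trend with exonic size or span was removed from these ratios. With the exonic size trend removed, the log2 fold change of CFLAR (0.19) was above that of CASP8 (0.091), the reverse of their ratio. With the span trend removed, that of FADD (0.045) was below that of CASP8 (0.38), again the reverse.

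The order of levels per exon length also differed between the groups. In UVB the deposited FPKM was 50.5 ± 2.42 for TNFRSF10B and 47.7 ± 1.22 for TNFRSF10D, whose ranges overlapped. TNFRSF12A (25.6 ± 4.69) and TNFRSF1A (19.0 ± 1.85) followed and did not differ beyond their spread. FADD (9.48 ± 1.35) and TNFRSF10A (7.08 ± 1.33) overlapped likewise. The range of FAS (5.15 ± 0.80) overlapped those of RIPK1 (5.39 ± 0.23) and CFLAR (4.55 ± 0.17), which were apart from each other, and CASP8 was lowest at 2.42 ± 0.31. In UVB + sauchinone, TNFRSF10D came first at 193 ± 36.1 FPKM, clear of TNFRSF10B at 85.4 ± 7.67, and TNFRSF10A (18.3 ± 1.95) stood above FADD (11.8 ± 1.13). The only neighbours that still overlapped there were RIPK1 (8.59 ± 0.64) and FAS (7.13 ± 0.98), and CASP8 stayed lowest at 2.58 ± 0.092. These levels depend on the exon length assigned to a gene. With the exonic sizes of GENCODE 29, a choice made after the deposited sizes were seen, FAS was at 35.5 ± 5.48 and 49.2 ± 6.76 on the same scale and RIPK1 at 15.5 ± 0.65 and 24.7 ± 1.85. The order changed as well, with FAS above TNFRSF12A and RIPK1 above FADD and TNFRSF10A in both groups. In UVB + sauchinone the only neighbours that overlapped were then TNFRSF1A (26.2 ± 1.93) and RIPK1. The counts of FAS and RIPK1 were still collected over the wider deposited models, so their levels and places in the order are uncertain.

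Among the UVB + sauchinone libraries, replicate 2 had the highest CPM in 8 of the 10 genes, TNFRSF1A and TNFRSF12A being the exceptions. CASP8, CFLAR and FADD, which were not called higher, were among these 8. The share of all genes tested that were highest in replicate 2 was not computed. Without it the log2 fold changes of TNFRSF10D, TNFRSF10A, TNFRSF10B, RIPK1 and FAS were 1.82, 1.23, 0.64, 0.56 and 0.30, and each still passed.

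A further 72 genes of the pathway were read in the same fit, in 6 lists by role. Of the 61 with enough counts, 21 rose, 10 fell and 30 did not pass, which is 50.8% called beside 49.6% of all genes, with a median log2 fold change of 0.015. Death ligands were scarce. Of 8 only TNFSF12 and TNFSF15 had enough counts to be tested, and neither passed in edgeR (log2 fold changes −0.36 and 0.12, adjusted p = 0.076 and 0.64) or in DESeq2 (adjusted p = 0.10 and 0.70). TNFSF12, which encodes TWEAK, the ligand of TNFRSF12A, had an unadjusted edgeR p of 0.040. It passed as lower with the span trend removed (−0.56, edgeR adjusted p = 0.0072), with the exonic size trend removed (−0.41, adjusted p = 0.042) and without UVB replicate 3 (−0.46, adjusted p = 0.032), and was at −0.23 without UVB + sauchinone replicate 1. TNFSF10, which encodes TRAIL, had 7, 4 and 20 counts in UVB and 2, 4 and 2 in UVB + sauchinone. FASLG had 7 counts, all in UVB + sauchinone replicate 2, and TNF summed to 3 counts in UVB and 18 with sauchinone.

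Of 11 other receptors of the TNF receptor family, death domain and decoy receptors among them, 7 were tested. Of these 1 was higher, 2 were lower and 4 did not pass. TNFRSF11B, osteoprotegerin, a secreted decoy that binds RANK ligand and TRAIL, gave 300.1, 281 and 330 CPM under UVB alone and 126, 117 and 115 CPM with sauchinone. It fell by 1.35 ± 0.078 on the log2 scale (edgeR adjusted p = 4.4e-12), opposite in direction to the membrane-bound decoy TNFRSF10D. LTBR, the lymphotoxin beta receptor, rose by 0.40 ± 0.084, and by 0.25 with the span trend removed. TNFRSF25, another death receptor, fell from 10, 12 and 13 counts to 4, 2 and 1 (edgeR adjusted p = 0.0033), so near the floor that the size of its fall is uncertain.

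Of 23 genes of the receptor complex and its ubiquitin control 6 rose, 2 fell and 15 did not pass (median 0.015). TRAF5, a signalling adaptor, fell by 0.77 ± 0.11 and MAP3K7, the kinase TAK1, by 0.39 ± 0.089 (0.24 with the exonic size trend removed), while TNIP1, which restrains NF-kB, rose by 0.44 ± 0.084. BIRC2 and XIAP, inhibitors of apoptosis, had log2 fold changes of −0.073 and −0.13 and did not pass. Of 14 other caspases, effectors and their direct regulators, 8 rose, 1 (CASP10) fell and 5 did not pass, with a median of 0.30. HTRA2, a mitochondrial protease released in apoptosis, rose by 0.66 ± 0.12 (edgeR adjusted p = 8.2e-05), and by 0.44 with the span trend removed. BID, which carries the signal of caspase 8 to mitochondria, did not pass at −0.25 ± 0.11 (edgeR adjusted p = 0.058).

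Of 5 genes grouped under necroptosis, the form of cell death run by RIPK1, RIPK3 and MLKL when caspase 8 is blocked, 4 were tested. PGAM5, a mitochondrial phosphatase, rose by 0.69 ± 0.099 and RIPK2, a kinase of innate immune signalling, by 0.39 ± 0.087. The core genes RIPK3 and MLKL did not pass, at −0.10 ± 0.18 and 0.24 ± 0.11 (edgeR adjusted p = 0.66 and 0.070). Modulators of receptor killing moved both ways, with 4 of 11 higher and 5 lower (median −0.021). DEDD2, DAXX, ARAF and PEA15 rose by 0.94, 0.39, 0.38 and 0.31, and PEA15 is a death effector domain protein that can block FADD and caspase 8. With the trend with genomic span removed, DAXX, ARAF and PEA15 lost their calls, at 0.16, 0.19 and 0.11 (edgeR adjusted p = 0.091, 0.12 and 0.15), and DEDD2 kept its call at 0.83. FAF1, a FAS-binding protein, fell by 1.76 ± 0.13, and CRADD, an adaptor of caspase 2, by 1.32 ± 0.20. These genes span 523 and 217 kb, and their log2 fold changes became −0.63 and −0.68 when that trend was removed. FAIM, CASP8AP2 and ITCH fell by 0.57, 0.44 and 0.32, and ITCH, a ubiquitin ligase known to target CFLAR, was at 0.091 (edgeR adjusted p = 0.35) with that trend removed. The CASP8AP2 call was lost without UVB replicate 3 (−0.23, adjusted p = 0.14), without UVB + sauchinone replicate 1 (−0.39, adjusted p = 0.067) and without UVB + sauchinone replicate 3 (−0.36, adjusted p = 0.085).

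**Figure D4:**
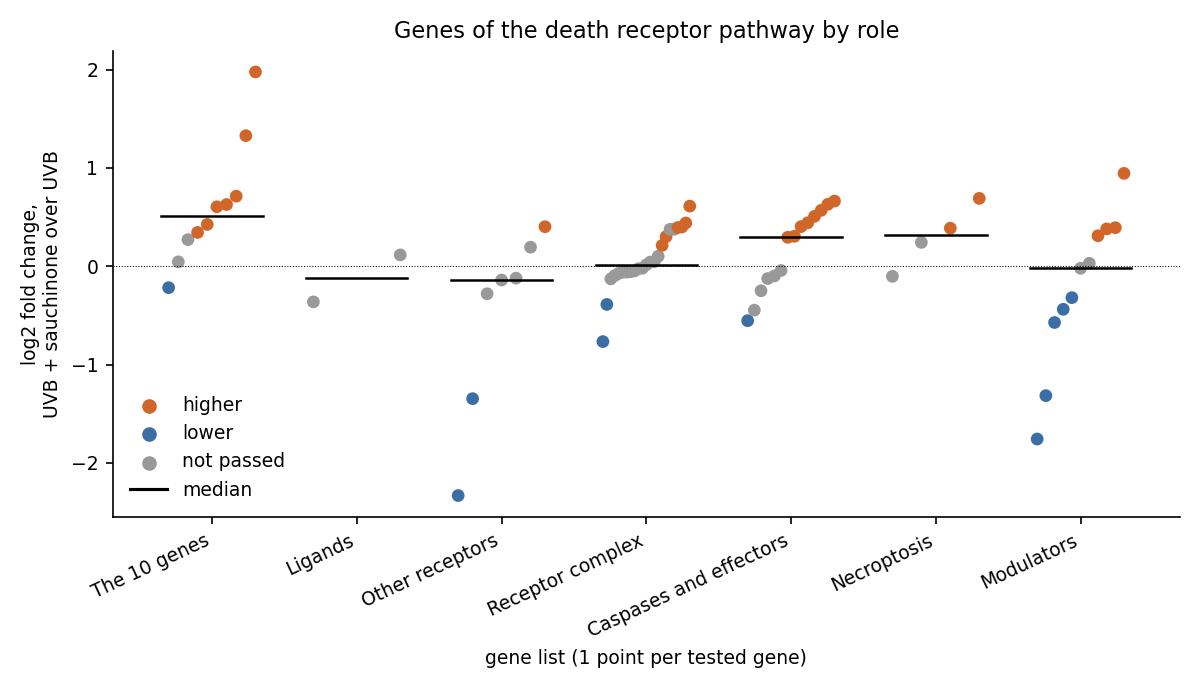
Log2 fold change of UVB + sauchinone over UVB (vertical axis) of each tested gene, by list (horizontal axis); colours give the call at an adjusted p under 0.05, and black lines are list medians. The 10 genes have a median of 0.52 and the other 6 lists medians from −0.14 to 0.32.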

How the data were processed

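For 6 libraries the authors deposited unnormalised counts, FPKM and exonic sizes of 61806 genes. The build is GRCh38, per the submitters' processing notes; aligner, counter, annotation release and strand setting were not given in the sources used here. The deposited FPKM equalled the count divided by exonic size and total in 100% of values (within 0.006). The test on counts was that of edgeR 4.0.16 under R 4.3.3 (filterByExpr, TMM, quasi-likelihood test, two-sided, Benjamini-Hochberg over 15704 genes), and the procedure was tested on simulated data. The SE is the absolute log2 fold change over the root of F. Per-library ratios used FPKM. The 10 genes, the pathway lists, the markers and the rule for naming list genes (the 2 smallest p per list, and any direction with 5 or fewer calls) were chosen with earlier results of these data known, and BIRC2, XIAP, BID, RIPK3, MLKL, TNFRSF10C, TNFSF10, FASLG, TNF and the overlapping genes were added after their values were seen. A gene that the rule would name is not reported here. Replicates of a group differed beyond sampling noise. The alternatives were DESeq2 1.42.0, limma-voom (limma 3.58.1), other scalings and filters, a replicate block, offsets removing a lowess trend with span or exonic size, and each library left out. No library was dropped from the main results.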

Additional observations from a re-analysis of the deposited data

How the results depend on the processing

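FAS, TNFRSF10A, TNFRSF10B, TNFRSF10D, TNFRSF12A and RIPK1 kept their direction and their call under all 16 alternatives run. The number of the 10 genes called higher was 7 or 8 throughout, and the number called lower, 1 (CFLAR) in the main analysis, was 0 with total counts only, 0 with the span trend removed, 0 with the trend with exonic size removed and 0 to 1 when 1 library was left out; DESeq2 and limma-voom called CFLAR lower. The CFLAR value turned to 0.19 with the exonic size trend removed; the cause was not tested. Of the pathway genes 17 to 24 were called higher and 8 to 14 lower, and all genes called numbered 6718 to 7914. Without the span trend, the log2 fold changes of TRAF3, TAB2, ITCH and CUL3 turned to 0.29, 0.55, 0.091 and 0.26, and without the exonic size trend those of CYLD, PARP1 and CUL3 turned to 0.19, 0.24 and 0.19; the cause was not tested. The CHUK call was lost in 11 alternatives. With the replicate number as a block (replicate block) 7 of the 10 genes were called higher, 1 lower, and 7280 genes in all. Same-numbered libraries did not deviate together (r = 0.007, −0.078 and −0.031), so the numbers were not taken to pair them. The within-library log2 ratios kept their direction when a library was left out, from −1.32 to −1.18 for TNFRSF10B to TNFRSF10D, −0.77 to −0.53 for TNFRSF10B to TNFRSF10A, −0.36 to −0.19 for CFLAR to CASP8 and 0.096 to 0.42 for FADD to CASP8. Depth limits the ligands TNFSF10, FASLG and TNF, which lie at or near the floor.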
